A study of Rattus norvegicus with 32 samples.

Results

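The genes described here are 10 guanine nucleotide exchange factors for the small GTPases Ras and Rap, taken by name from the 22587 genes of the expression table: 3 RasGRP genes (Rasgrp1, Rasgrp2 and Rasgrp3), 2 RasGRF genes (Rasgrf1 and Rasgrf2) and 5 Rapgef genes (Rapgef1 to Rapgef5). Rasgrp3 was selected on its change with ozone in sham-operated rats, measured in these same libraries. Every difference of Rasgrp3 that includes the sham libraries after ozone is therefore given as a description with no test. Its remaining tests still use an estimate of spread pooled over all groups of a tissue, those libraries included. The other 9 genes joined Rasgrp3 as relatives by name. The table lists 13 genes whose symbols begin with Rasgrp, Rasgrf or Rapgef, and the remaining ones (Rasgrp4, Rapgef6 and Rapgefl1) were kept with the wider pathway. Messenger RNA was sequenced from 2 brain regions, brainstem and hypothalamus, in 13-week-old Wistar Kyoto rats, which are inbred. The rats had undergone either a sham operation (SHAM) or total bilateral adrenalectomy (ADREX), which removes the glands that secrete corticosterone and adrenaline, and then breathed either air or ozone at 0.8 ppm for 4 hours. Tissue was frozen straight after exposure. The 2 tissues, 2 operations and 2 exposures gave 8 groups of 4 libraries, 32 in all. The labels do not state that the 4 libraries of a group came from separate rats, so the p-values below measure the spread between these libraries, which may be technical, and no replacement of adrenal hormones is stated for the ADREX rats.

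Ras and Rap are switches at the inner face of membranes: they are inactive with GDP and active with GTP, and exchange factors turn them on by releasing the GDP. The subfamilies differ in the signals that control them, and members of a subfamily can differ too. RasGRP proteins are recruited by diacylglycerol, RasGRF proteins respond to calcium through calmodulin and act downstream of glutamate receptors in neurons, and the Rapgef genes include both Epac proteins, which bind cyclic AMP. RasGRP3 acts on Ras and on Rap and is known from B cells and from blood vessel endothelium.

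Of the 10 genes, 9 have a promoter entry in RefSeq's rat annotation (build GRCr8), with 10 entries in all. The 250 bases before the annotated start of the 3 RasGRP genes are printed 5′ to 3′ along the strand of each gene, to set Rasgrp3 beside its closest relatives by name. Those relatives were called in no contrast within a tissue, where limma called at most 2.44% of all genes. The capitals mark CG pairs, the sites at which promoter DNA can be methylated. The coordinates are those of GRCr8, not of the older build used for the counts.
Rasgrp3 chr6:25710592-25710841 (minus strand): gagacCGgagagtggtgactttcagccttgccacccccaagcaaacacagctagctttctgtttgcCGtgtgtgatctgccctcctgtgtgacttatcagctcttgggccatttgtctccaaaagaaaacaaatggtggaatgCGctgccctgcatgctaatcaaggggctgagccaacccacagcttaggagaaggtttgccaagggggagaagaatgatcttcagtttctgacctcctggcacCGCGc
Rasgrp1 chr3:124684080-124684329 (minus strand): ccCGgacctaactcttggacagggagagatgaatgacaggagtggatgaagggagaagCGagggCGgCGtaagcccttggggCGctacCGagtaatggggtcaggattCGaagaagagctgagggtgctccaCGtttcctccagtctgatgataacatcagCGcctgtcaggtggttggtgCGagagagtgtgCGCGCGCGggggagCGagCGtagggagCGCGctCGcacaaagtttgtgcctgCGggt
Rasgrp2 chr1:213136484-213136733 (plus strand): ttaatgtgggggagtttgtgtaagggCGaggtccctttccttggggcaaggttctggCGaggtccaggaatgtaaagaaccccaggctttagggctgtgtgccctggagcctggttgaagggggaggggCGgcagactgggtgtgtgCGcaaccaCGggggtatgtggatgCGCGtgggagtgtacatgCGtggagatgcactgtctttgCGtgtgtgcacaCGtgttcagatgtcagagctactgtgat
The Rasgrp3 stretch held 5 CG pairs and 53.2% G or C, close to the medians of 5 pairs and 51.2% over 33469 rat promoters. The Rasgrp1 stretch held 20 pairs and 60.4% G or C, and the Rasgrp2 stretch 10 pairs and 57.6%. Exact matches to 4 motifs, chosen after the sequences had been seen, were counted on both strands over the same 250 bases. The half-site of the glucocorticoid receptor, AGAACA, was found in 17.5% of all promoters and, among the 10 entries, in that of Rasgrf2. The full glucocorticoid receptor palindrome, which contains that half-site and its reverse complement spaced by 3 bases, was found in 0.012% of all promoters and in none of the 10. The AP-1 motif TGACTCA was in 4.05% of all promoters and in that of Rapgef3, and the cyclic AMP response element TGACGTCA was in 1.59% and in none of the 10. None of the 4 motifs was in the Rasgrp3 stretch.

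Levels are normalized counts, that is, reads per gene divided by a size factor of the library, which cannot be compared between genes because transcript lengths are not used here. Differences are on the scale of log2(normalized count + 1), with the standard error (SE) from limma, and a gene is called where its p, adjusted over all genes tested by the Benjamini-Hochberg method, is under 0.05. The libraries held 6.44 to 12.4 M reads. The tissue labels fitted their markers: 9 hypothalamic genes summed to 3299.7 to 5055 in hypothalamus and 39.9 to 190 in brainstem, and 8 brainstem genes to 43.3 to 183 and 4757 to 5819. Of the 32 libraries, 4 were rich in liver transcripts, with 15 liver genes at 3182 to 4073 RPM (reads scaled to library size): brainstem SHAM ozone 18, hypothalamus SHAM air 2, SHAM ozone 18 and ADREX air 68. Brainstem ADREX ozone 81 also stood apart, with the most reads and the lowest summed level of 6 oligodendrocyte genes (272469, against 343374 to 449374 in the other brainstem libraries).

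Rasgrp3 was lower after ozone in sham rats in both tissues, and stood near its level in air after ozone in adrenalectomized rats. In the brainstem its normalized counts after air in sham rats were 1523, 1510.2, 1646 and 1658 (mean 1584 ± 78.6, SD, n = 4). After ozone in sham rats they were 646, 739, 673 and 593 (662 ± 60.7, SD, n = 4). The highest library after ozone lay far below the lowest after air, and the mean after ozone was 0.418 of that after air, a log2 difference of -1.26 (SE 0.087). This is the contrast for which the gene was chosen, so it carries no test. Over all 14408 genes tested in the brainstem, limma called 0.979% in this contrast, and 7.18% had groups of libraries that did not overlap.

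In the hypothalamus the levels of Rasgrp3 were lower in every condition, and the sham ozone libraries again stood below the sham air libraries. After air in sham rats they were 584, 546, 579 and 572 (570.0 ± 16.6, SD, n = 4). After ozone they were 257, 337, 246 and 266 (277 ± 40.9, SD, n = 4). The groups did not overlap and the log2 difference was -1.05 (SE 0.097), again with no test. Among 14483 genes tested in the hypothalamus, 1.59% were called in this contrast and 9.62% had groups that did not overlap. The highest of the sham ozone libraries, number 18 in each tissue, is one of those rich in liver transcripts. Without them the differences were -1.31 in brainstem and -1.17 in hypothalamus, the latter also without SHAM air 2. The change in the hypothalamus minus that in the brainstem was 0.21 on the log2 scale (SE 0.12), also with no test.

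**Figure D1:**
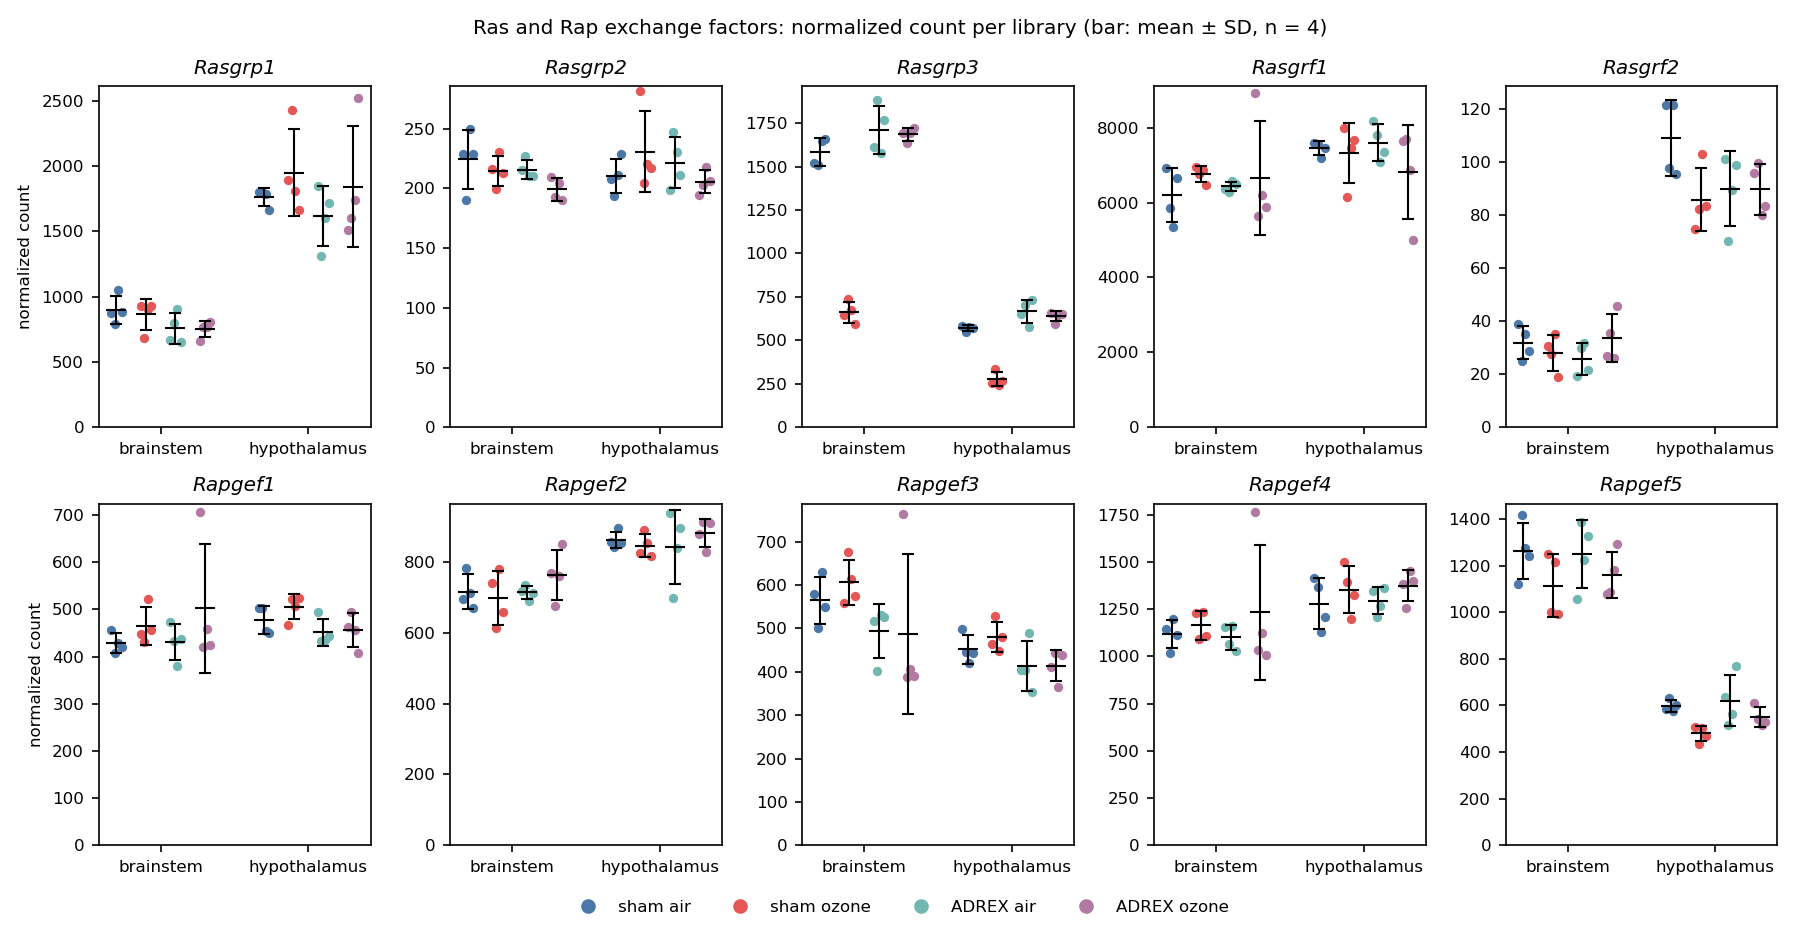
Normalized count of each of the 10 exchange factors (vertical axis, starting at 0) in the 32 libraries, by tissue, operation and exposure; each point is a library and the bars give the mean ± SD of 4 libraries. The sham ozone libraries of Rasgrp3 (593 to 739 in brainstem, 246 to 337 in hypothalamus) sit below all others of the tissue, and in hypothalamus those of Rapgef5 (436 to 508) do too.

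In adrenalectomized rats the level of Rasgrp3 after ozone overlapped the level after air. The brainstem libraries stood at 1611, 1881, 1581 and 1769 after air (1710.5 ± 141, SD, n = 4) and at 1695, 1633, 1694 and 1724 after ozone (1687 ± 38.1, SD, n = 4). The 4 ozone libraries lay inside the range of the 4 air libraries, with a log2 change of -0.02 (SE 0.087, 95% interval -0.20 to 0.17, adjusted p = 0.977). The SE pools the spread of all 4 groups of the tissue, sham ozone included. The interval and adjusted p are thus not fully independent of the choice of the gene. No gene was called in this contrast (0.0%), although 851 of 14408 genes had an unadjusted p under 0.05, edgeR called 0 and DESeq2 called 1. The sign of this small change was positive without ADREX air 66 (0.03) or 68 (0.00067), and after quantile normalization (0.01).

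The hypothalamus gave the same picture after adrenalectomy. Rasgrp3 stood at 651, 703, 579 and 732 after air (666 ± 67.1, SD, n = 4) and at 657, 596, 645 and 654 after ozone (638 ± 28.7, SD, n = 4). The groups overlapped, with a log2 change of -0.06 (SE 0.097, 95% interval -0.26 to 0.15, adjusted p = 0.838). The SE is again pooled over the 4 groups of the tissue, with the same limit. Here too no gene was called (0.0%), 1163 had an unadjusted p under 0.05, and edgeR and DESeq2 called 0. The groups of all 10 members overlapped, while 3.64% of all genes had groups that did not.

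Adrenalectomy alone, compared with the sham operation in air, went with no called change of Rasgrp3. This comparison shares its sham air libraries with the contrast for which the gene was chosen, and its SE also pools the sham ozone libraries. Its intervals and adjusted p values are therefore not independent of that choice. In the brainstem the change was 0.11 (SE 0.087, 95% interval -0.08 to 0.29, adjusted p = 0.9998), in a contrast where limma called 0.0% of genes, 545 had an unadjusted p under 0.05, edgeR called 0 and 16 were called by DESeq2. The hypothalamic change was 0.22 (SE 0.097, 95% interval 0.01 to 0.43, adjusted p = 0.871), and 0.0138% of genes were called. The ranges of the SHAM air and ADREX air libraries overlapped in both tissues: 1581 to 1881 against 1510.2 to 1658, and 579 to 732 against 546 to 584. No member had groups that did not overlap in this comparison, as 3.3% of all genes did in brainstem and 5.11% in hypothalamus.

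After ozone, Rasgrp3 stood higher in adrenalectomized than in sham rats: the ADREX mean was 2.55 times the sham mean in the brainstem and 2.31 times in the hypothalamus, log2 differences of 1.35 and 1.21. The ozone change in adrenalectomized rats minus that in sham rats was 1.24 (SE 0.12) in the brainstem and 0.99 (SE 0.14) in the hypothalamus. These values rest on the sham ozone libraries and are descriptions. Over all genes, limma called 2.44% and 2.24% for the operation in ozone, where 7.29% and 6.64% had groups that did not overlap, and 0.201% and 0.138% for the difference of the ozone changes.

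The 8 group means of Rasgrp3 fall into 3 steps. The highest are brainstem ADREX air (1710.5), ADREX ozone (1687) and SHAM air (1584), whose ranges overlap each other. Next come hypothalamus ADREX air (666), brainstem SHAM ozone (662) and hypothalamus ADREX ozone (638), which overlap each other, and hypothalamus SHAM air (570.0), which overlaps the ADREX air libraries of its tissue but not the ADREX ozone libraries. The lowest is hypothalamus SHAM ozone (277), apart from all others. In this order the brainstem after ozone in sham rats stands level with the hypothalamus of adrenalectomized rats.

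Because these are pieces of whole tissue, fewer cells of a type and less RNA per cell cannot be told apart. Levels of cell type markers were therefore set beside those of Rasgrp3. Of 15 endothelial genes 13 were in the table and none was at 0 in any library. Their summed level in brainstem was 8038 to 9527 after air and 8289 to 10264 after ozone in sham rats, and 7668 to 10394 and 7065 to 9218 in adrenalectomized rats. In hypothalamus it was 6302 to 6453 and 6759.8 to 8714 in sham rats, and 5859 to 6761 and 5865 to 9813 in adrenalectomized rats. The sums of air and ozone libraries overlapped in sham brainstem, and those after ozone lay above those after air in sham hypothalamus. Such a sum gives the most weight to the most abundant of the 13 genes.

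Gene by gene, most of the endothelial genes had a lower estimate after ozone in sham rats, as Rasgrp3 did: 11 of 13 in brainstem and 12 of 13 in hypothalamus. Limma called 3 of the 13 lower after ozone in sham brainstem (Kdr, a receptor for vascular endothelial growth factor, Tie1, a receptor of vessel walls, and the transporter Slco1c1) and 3 in sham hypothalamus (Kdr, Slco1c1 and Emcn, an endothelial surface protein). Over all genes 0.979% and 1.59% were called there in either direction. The median log2 change of the 13 was -0.46 and -0.36. In ozone, 7 and 6 of them were called higher after adrenalectomy, with medians of 0.53 and 0.47. Of all genes, 2.44% and 2.24% were called in that comparison in either direction. The ozone change in adrenalectomized rats minus that in sham rats was called for 0 of the 13 in either tissue, beside 0.201% and 0.138% of all genes. Of the 7 microglial genes, 6 also had a lower estimate after ozone in each sham tissue, with medians of -0.21 and -0.14. None of the 7 was called there. Their sums were 1569.6 to 1656 after air and 1241 to 1526 after ozone in sham brainstem. In sham hypothalamus they were 1357 to 1519 and 1289.8 to 1449.6. The microglial sums after ozone lay below those after air in brainstem and overlapped them in hypothalamus. Of the neuronal, astrocyte and oligodendrocyte genes none was called after ozone in sham rats. For adrenalectomy in ozone, the microglial gene Aif1, the astrocyte gene Gfap and the oligodendrocyte gene Cnp were called higher in brainstem, and the astrocyte gene Aqp4 and the oligodendrocyte genes Cnp and Mog in hypothalamus. The 8 platelet and B cell genes, from cell types known for RasGRP proteins, summed to only 13.5 to 41.6 in any library. The part of these cell types in the change of Rasgrp3 was not tested.

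**Figure D2:**
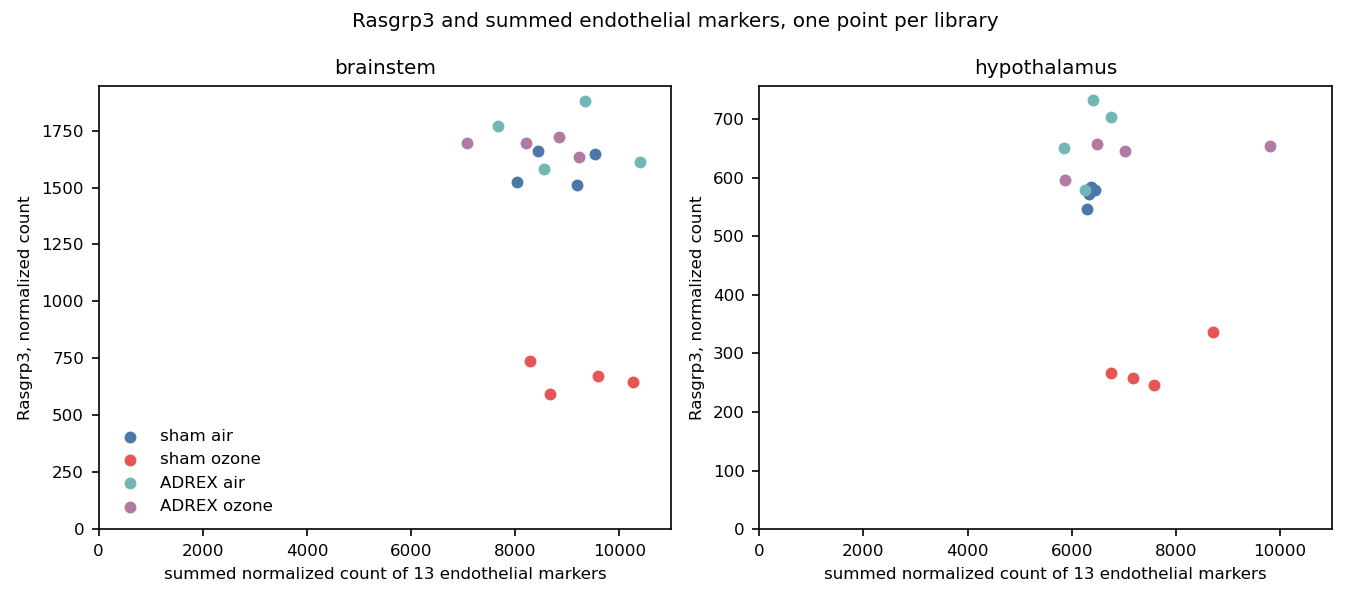
Normalized count of Rasgrp3 (vertical axis) against the summed normalized count of 13 endothelial genes (horizontal axis), both axes starting at 0, with 16 brainstem and 16 hypothalamus libraries in the panels. The sham ozone points lie below the rest on the vertical axis. Their endothelial sums run from 8289 to 10264 in brainstem and from 6759.8 to 8714 in hypothalamus. Taken singly, 11 and 12 of the 13 genes had lower estimates after ozone in sham rats.

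None of the other 9 exchange factors was called in any of the 10 contrasts within a tissue, with limma, edgeR or DESeq2. Limma called only 0.0% to 2.44% of all genes in these contrasts, so the absence of calls does not set the 9 apart. For ozone in sham rats their log2 changes ran from -0.20 to 0.13 in brainstem and from -0.34 to 0.13 in hypothalamus. For ozone in adrenalectomized rats they ran from -0.11 to 0.37 and from -0.18 to 0.17. For adrenalectomy in air they ran from -0.31 to 0.06 and from -0.28 to 0.07, and in ozone from -0.38 to 0.25 and from -0.21 to 0.20. An unadjusted p under 0.05 was reached by 2 of the 9 for ozone in sham hypothalamus (Rasgrf2 and Rapgef5) and by Rapgef3 for adrenalectomy in ozone in each tissue. Over all genes, 1818 of 14483 reached it for ozone in sham hypothalamus. For adrenalectomy in ozone 1618 of 14408 did so in brainstem and 1737 of 14483 in hypothalamus. In the plot of ozone effects, the intervals of Rasgrf2 (-0.65 to -0.04) and Rapgef5 (-0.54 to -0.10) in sham hypothalamus were wholly negative, without adjustment over all genes. Every other interval of the 9 in that plot ran from negative to positive. The size of change that could have been called with 4 libraries a group was not tested.

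**Figure D3:**
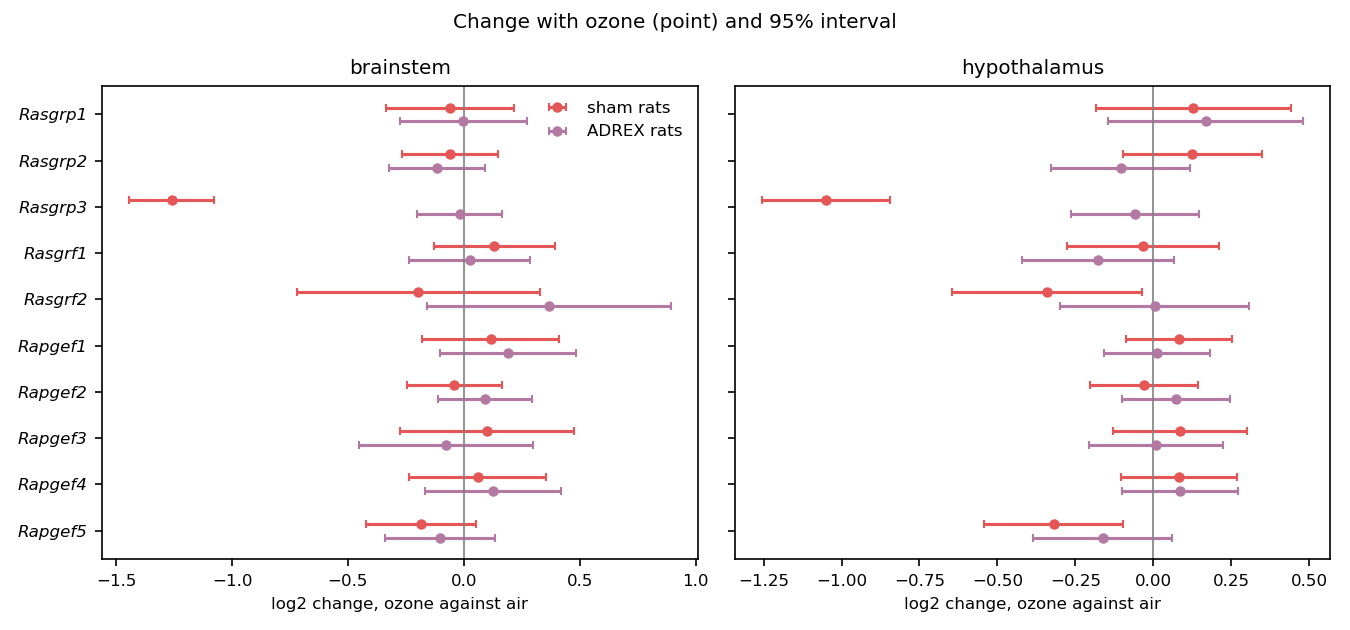
Log2 change of each exchange factor with ozone against air (horizontal axis), in sham and in ADREX rats, for brainstem and hypothalamus; points are limma estimates and bars their 95% intervals, from 4 libraries a group. The sham points of Rasgrp3 (-1.26 in brainstem, -1.05 in hypothalamus) are a description of the contrast for which it was chosen, with bars that test nothing, and its ADREX intervals span 0.

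Of the other RasGRP genes, Rasgrp1, the diacylglycerol-responsive Ras activator best known from T cells, ranged from 651 to 1049 in brainstem (median 802) and from 1309 to 2517 in hypothalamus (median 1764). No brainstem library reached the lowest hypothalamic one. Rasgrp2, a calcium- and diacylglycerol-regulated activator of Rap known from platelets, had the narrowest range of the RasGRP genes, at 190.1 to 249.97 in brainstem and 194 to 281 in hypothalamus. In adrenalectomized brainstem its libraries stood at 215, 227, 210.2 and 209.9 after air and at 209.3, 192, 204 and 190.1 after ozone. These groups just failed to overlap, which 2.19% of all genes also did, and the change of -0.11 (SE 0.099) had an adjusted p of 0.835. Rasgrp4, the mast cell member of the group, was close to the limit of detection, at 1.14 to 18.1.

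Of the 2 RasGRF genes, Rasgrf1, the calmodulin-regulated exchange factor of neurons, had 5359 to 8916 in brainstem and 5010 to 8185 in hypothalamus. Rasgrf2 stood at 18.9 to 45.7 in brainstem, at 16 or more reads per library, and at 70.2 to 122 in hypothalamus. In sham hypothalamus Rasgrf2 stood at 122, 97.8, 121 and 95.4 after air and at 74.8, 82.4, 103 and 83.3 after ozone. The groups overlapped, and the change of -0.34 (SE 0.14) did not pass the adjustment over all genes (adjusted p = 0.328).

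Among the Rap exchange factors, Rapgef5, which acts on Rap and binds no cyclic AMP, came nearest to a call. In sham hypothalamus it stood at 582, 629.6, 576 and 603 after air (598 ± 24.2, SD, n = 4) and at 508, 436, 504 and 469 after ozone (479 ± 34.0, SD, n = 4). All 4 ozone libraries were below all 4 air libraries, a change of -0.32 (SE 0.10) with an adjusted p of 0.175. Of the 9 members other than Rasgrp3 it alone had groups that did not overlap there, where 9.62% of all genes did not. In adrenalectomized hypothalamus the same gene stood at 634, 517, 563 and 768 after air and at 610.4, 544, 515 and 528 after ozone, with overlap. In ozone its ADREX libraries all lay above its sham libraries, by 0.20 (SE 0.10, adjusted p = 0.493). For that comparison, only Rapgef5 and Rapgef3 of the 9 members other than Rasgrp3 had groups that did not overlap, beside 6.64% of all genes. Rasgrp3 is left out of this count because it was chosen on the sham ozone libraries. In brainstem the sham air libraries (1121 to 1415) and sham ozone libraries (992 to 1249) of Rapgef5 overlapped.

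Rapgef3, or Epac1, the cyclic AMP sensor known from endothelium, was not called either. In ozone, 7 of its 8 ADREX libraries lay below every sham library of their tissue. In brainstem it stood at 559.5, 676, 615 and 575 in sham rats and at 764, 387, 407 and 389.8 in adrenalectomized rats. The library at 764 is ADREX ozone 81, named above as standing apart, and with it the change was -0.38 (SE 0.18, adjusted p = 0.442). Without it the change was -0.62 and was called (adjusted p = 0.00335), while calls over all genes rose from 352 to 444. Among 2704 alternative values of the other 9 members over 11 contrasts, the tissue difference left out, this was the only call. In hypothalamus Rapgef3 stood at 464, 529, 448 and 479 in sham ozone and at 410.4, 443, 365 and 439 in ADREX ozone libraries. These groups did not overlap, nor did those of 6.64% of all genes, and the change of -0.21 (SE 0.10) had an adjusted p of 0.416. The part of library 81's lower oligodendrocyte level in its high Rapgef3 was not tested.

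Rapgef1, which is brought to receptors by Crk adaptors, had 381 to 707 in brainstem and 408 to 525 in hypothalamus. Rapgef2, a Rap activator of neurons and of cell junctions, had 614 to 851 and 699 to 939. Rapgef4, or Epac2, the cyclic AMP sensor of neurons and hormone-secreting cells, had 1007 to 1764 and 1128 to 1502. The highest brainstem values of Rapgef1 and Rapgef4, like those of Rapgef3 and Rasgrf1, came from ADREX ozone 81. Apart from that library Rapgef1 reached 523 and Rapgef4 1237 in brainstem.

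Most of the exchange factors differed between the tissues. Comparing 16 hypothalamus with 16 brainstem libraries, limma called 7 of the 9 genes other than Rasgrp3, where 54.0% of 14533 genes were called. Of the 7, 5 were higher and 2 lower in hypothalamus, beside 27.1% and 26.9% of all genes. Rasgrp1 was higher in hypothalamus by 1.13 (SE 0.072, adjusted p = 2.87e-14) and Rasgrf2 by 1.64 (SE 0.099, adjusted p = 8.58e-15). Smaller excesses were called for Rapgef2 (0.25), Rapgef4 (0.21) and Rasgrf1 (0.16, adjusted p = 0.0235). Rapgef5 was lower in hypothalamus by -1.09 on the log2 scale (SE 0.054, adjusted p = 8.08e-17). Rapgef3 was lower by -0.27 (SE 0.074, adjusted p = 0.00272). The tissues overlapped in no library for Rasgrp1, Rasgrf2 and Rapgef5, which 8.95% of all genes also showed. The difference for Rasgrp3 was -1.37 (SE 0.044), given with no test because the libraries pooled here include the sham ozone ones. Its tissues did not overlap within any of the 4 conditions.

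Rapgef1 and Rasgrp2 were not called between the tissues. Rapgef1 differed by 0.06 (95% interval -0.06 to 0.18, adjusted p = 0.385), and without brainstem ADREX ozone 81 by 0.10, which was called (adjusted p = 0.0265). Rasgrp2 differed by 0.02 (95% interval -0.08 to 0.12, adjusted p = 0.732), and by -0.0029 without hypothalamus SHAM ozone 17. Beside these differences, 12 of 13 endothelial genes were called lower in hypothalamus, with a median of -0.46, where 26.9% of all genes were called lower. The oligodendrocyte sum was 119092 to 191861 in hypothalamus against 272469 to 449374 in brainstem. The part of the cell makeup in the tissue differences of the exchange factors was not tested.

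**Figure D4:**
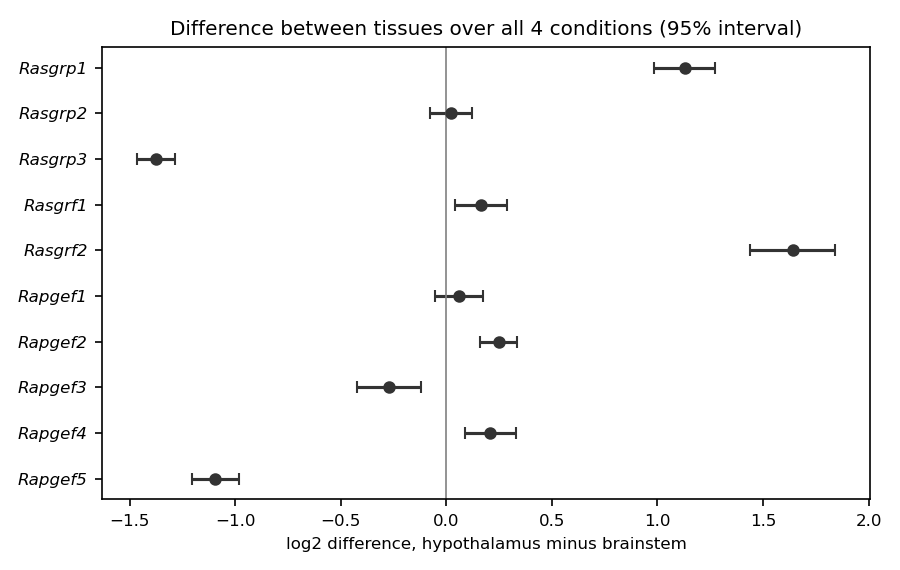
Log2 difference of each exchange factor, hypothalamus minus brainstem (horizontal axis), estimated by limma over 16 libraries a tissue, with 95% intervals. Rasgrf2 (1.64) and Rasgrp1 (1.13) lie to the right, Rasgrp3 (-1.37) and Rapgef5 (-1.09) to the left, and the intervals of Rasgrp2 and Rapgef1 span 0.

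The wider pathway was followed with 7 lists holding 104 genes: the Ras and Rap GTPases, other exchange factors, the GTPase-activating proteins that switch Ras and Rap off, effectors, enzymes that make or remove diacylglycerol, protein kinase C, and adenylyl cyclases with protein kinase A. For ozone in sham brainstem, 1 of the 101 genes tested rose, 1 fell and 99 did not pass, that is 1.98% called against 0.979% of all genes. In sham hypothalamus 1 of 102 rose, 1 fell and 100 did not pass (1.96% against 1.59%). None was called for ozone in adrenalectomized rats or for adrenalectomy in air, in either tissue, where limma called between 0.0% and 0.0138% of all genes. The ozone change in adrenalectomized rats minus that in sham rats was called for 0 of 101 genes in brainstem and 0 of 102 in hypothalamus. Over all genes 0.201% and 0.138% were called there. The sham ozone change compared between the tissues was called for 0 of 101 (0.0% of all genes). The medians of the 101 and 102 genes were -0.03 and -0.04 for ozone in sham rats, beside medians of -0.0026 and -0.0047 over all genes.

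The gene that rose in both tissues was Plce1, phospholipase C epsilon, an effector of Ras and Rap that makes diacylglycerol. In brainstem it stood at 91.2 ± 15.5 after air and 165 ± 6.34 after ozone in sham rats (SD, n = 4), a change of 0.87 (SE 0.17, adjusted p = 0.0155). Its groups were 69.8 to 104 and 157 to 171. In hypothalamus it stood at 85.8 ± 10.98 and 164 ± 24.7 (SD, n = 4), with a change of 0.92 (SE 0.17, adjusted p = 0.0113). The groups overlapped in neither tissue. The brainstem call was lost, with adjusted p values from 0.0513 to 0.0649, without any 1 of SHAM air 2 or 4 or SHAM ozone 17, 19 or 20, and the hypothalamus call without the libraries rich in liver transcripts (0.91, adjusted p = 0.0585). In adrenalectomized rats Plce1 stood at 75.7 ± 14.1 and 84.8 ± 18.4 in brainstem and at 77.2 ± 19.9 and 80.7 ± 14.7 in hypothalamus after air and ozone (SD, n = 4).

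The genes that fell were adenylyl cyclases, which make cyclic AMP. Adcy4, a cyclase known from blood vessels, fell in sham brainstem from 42.2 ± 3.57 to 22.8 ± 1.87 (SD, n = 4), a change of -0.86 (SE 0.15, adjusted p = 0.00768). Its sham hypothalamus means were 27.2 ± 5.76 and 17.1 ± 2.13 (SD, n = 4), not called. Adcy8, a calcium-stimulated cyclase of neurons, fell in sham hypothalamus from 468 ± 26.4 to 329 ± 43.0 (SD, n = 4), a change of -0.51 (SE 0.11, adjusted p = 0.0209). That call was lost without any 1 of SHAM air 1, 2 or 3 or SHAM ozone 17, 18 or 20, at adjusted p values from 0.0538 to 0.0712. Without the libraries rich in liver transcripts the change was -0.41 (adjusted p = 0.132).

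For adrenalectomy in ozone, which shares the sham ozone libraries with the contrast above, 5 of 101 genes were called in brainstem (2 higher, 3 lower, 4.95% against 2.44% of all genes) and 6 of 102 in hypothalamus (3 higher, 3 lower, 5.88% against 2.24%). Plce1 was lower after adrenalectomy by -0.98 in brainstem and -1.02 in hypothalamus (adjusted p = 0.0037 and 0.0035), and these calls held with every library left out in turn. Adcy4 was higher by 0.69 and 1.04 (adjusted p = 0.0193 and 0.0062). In brainstem its call was lost without SHAM ozone 17 (0.70, adjusted p = 0.0502) or 20 (0.64, adjusted p = 0.0767), with DESeq2 (adjusted p = 0.0586), with no filter on low values (limma, adjusted p = 0.0570) and with the compared groups alone (limma, adjusted p = 0.151). Mras, a Ras relative, was lower in hypothalamus by -0.44 (adjusted p = 0.0061), and Rap1a, a main substrate of the Rapgef proteins, was higher there by 0.43 (adjusted p = 0.0117). Both of those calls also held with every library left out in turn, but that of Rap1a was lost with the compared groups alone (adjusted p = 0.0921).

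The remaining calls of this comparison were each lost without at least 1 library, and all of them also with the compared groups alone (adjusted p = 0.0505 to 0.185). Ralgds, an effector of Ras that activates Ral, was lower by -0.62 in brainstem and -0.52 in hypothalamus (adjusted p = 0.0117 and 0.0430). Its brainstem call was lost without SHAM ozone 19 (-0.56, adjusted p = 0.0559) or 20 (-0.59, adjusted p = 0.0505). Rasa3, which switches off Ras and Rap, was higher in brainstem by 0.43 (adjusted p = 0.0295), and its call was lost without SHAM ozone 17, 18, 19 or 20 or ADREX ozone 82, at changes of 0.41 to 0.45. Plcd4, a phospholipase C, was lower in brainstem by -0.62 (adjusted p = 0.0389), and Adcy8 was higher in hypothalamus by 0.43 (adjusted p = 0.0473). For Plcd4, Adcy8 and the hypothalamic Ralgds, leaving out any 1 of 9, 11 and 12 of the 16 libraries ended the call, and the changes with a library left out were -0.69 to -0.55, 0.36 to 0.51 and -0.63 to -0.44.

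Between the tissues 37 of 101 pathway genes were higher in hypothalamus, 29 lower and 35 not called, 65.3% called against 54.0% of all genes. Protein kinase C, the other main target of diacylglycerol, had 5 of 9 genes higher and 2 lower, among them Prkcd (3.81). The GTPases Rap1a (-0.75) and Nras (-0.70) were lower in hypothalamus, and among the GTPase-activating proteins Rasal1 (3.21) was higher. The adenylyl cyclase and protein kinase A list had 8 of 15 higher, led by Prkar2b (0.87), a regulatory subunit of protein kinase A, and 2 lower.

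The genes whose pattern was most like that of Rasgrp3 were sought among 10517 genes with a mean of at least 50. Genes with provisional symbols, such as those beginning with LOC or RGD, were left out of this search. Likeness was Pearson's r over the 32 libraries after the mean of each tissue had been subtracted. The libraries share tissue blocks, depth and treatment, so r is a description. The 6 highest were Ccnd1 (0.964), which encodes cyclin D1, Pld1 (0.933), a phospholipase D, Nkd1 (0.913), an inhibitor of Wnt signalling, Gbp2 (0.910), an interferon-inducible GTPase, Sall1 (0.907), a transcription factor of microglia, and Cd180 (0.900), a receptor of the Toll-like family. The 6 lowest were Fkbp5 (-0.982), which regulates the glucocorticoid receptor within its chaperone complex, Tnfrsf11a (-0.969), Pex11a (-0.969), Znf740 (-0.967), Lonrf3 (-0.966) and Gpatch4 (-0.961). In sham brainstem Ccnd1 stood at 384 ± 55.1 after air and 198 ± 16.5 after ozone, while Fkbp5 stood at 264 ± 33.9 and 1308 ± 113 (SD, n = 4).

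Within the groups the likeness was smaller. When the mean of each of the 8 groups was subtracted, r with Rasgrp3 was 0.262 for Ccnd1, 0.258 for Pld1, 0.103 for Nkd1, 0.429 for Gbp2, 0.686 for Sall1 and 0.434 for Cd180. The 6 lowest then had values between -0.700 for Tnfrsf11a and -0.304 for Pex11a, with -0.511 for Fkbp5. Among the other 9 exchange factors, Rapgef5 had the highest r with Rasgrp3 (0.521) and Rapgef3 the lowest (-0.447) after the tissue means were subtracted. After the group means were subtracted these were 0.103 and -0.026, and the 9 lay between -0.216 for Rasgrf1 and 0.121 for Rasgrp1.

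**Figure D5:**
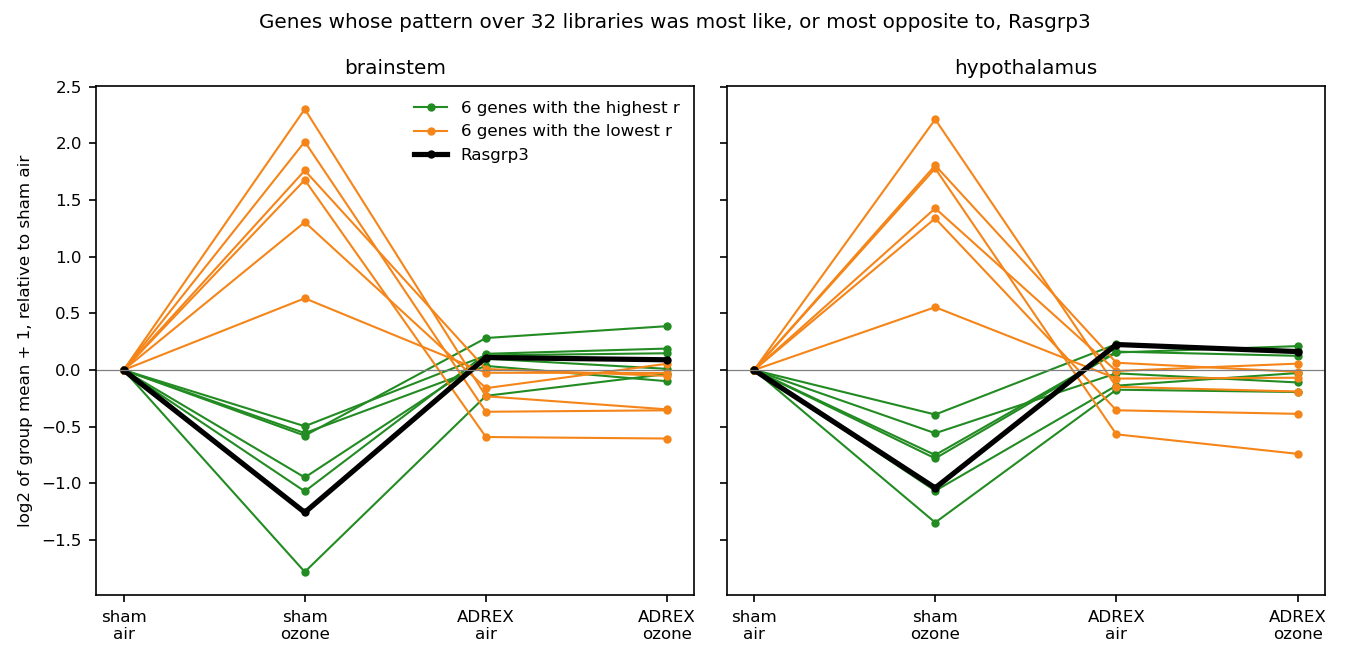
Group means of Rasgrp3 (black), the 6 genes with the highest r (green) and the 6 with the lowest r (orange), as log2 of the group mean + 1 relative to sham air (vertical axis), for the 4 conditions of each tissue (horizontal axis). All 6 green genes dip with Rasgrp3 and all 6 orange genes peak in sham ozone; the genes were chosen for this pattern.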

How the data were processed

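Messenger RNA of brainstem and hypothalamus was sequenced in 32 libraries, 4 in each of 8 groups taken from the labels. The authors deposited a signal, namely normalized counts, for 22587 genes. Partek, DESeq2 and the rat build rn6 are named per the submitters' processing notes, without roles. No aligner, gene annotation or rule for reads shared by similar genes was given in the sources used here. Deposited values stepped evenly within each library, by 0.623 to 1.25 per read. After division by that step, 100.0% of values came out whole (tolerance 0.001), and libraries totalled 6.44 to 12.4 M reads. No columns were identical, and libraries of the same group differed by more than sampling noise (chi-square per degree of freedom of at least 2.69). Of the genes, 450 had 0 reads in every library.

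From these values log2(normalized count + 1) was computed. Genes with a mean under 10 in the fit were left out. Limma 3.58.1 with a mean-variance trend was fitted to the 4 groups of each tissue (14408 and 14483 genes), or to all 8 groups for comparisons between tissues (14533 genes). Benjamini-Hochberg adjustment ran over all genes of each contrast, with calls at an adjusted p under 0.05, and intervals are 95% without adjustment. The fits were tested on simulated data. Alternatives were edgeR 4.0.16 and DESeq2 1.42.0 on the recovered reads (R 4.3.3), pseudocounts of 0.5 and 5, no mean filter or one at 50, 2 other scalings, the compared groups alone, each library left out, and the libraries rich in liver transcripts left out.

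The members and the lists of pathway genes and cell type markers were chosen with earlier results of these data known. Named were all 10 members, up to 4 called genes per pathway list and contrast with the smallest p, and the 6 genes most and least like Rasgrp3. Some genes that this rule names are not reported here. Promoters came from RefSeq (GRCr8).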

Additional observations from a re-analysis of the deposited data

Results flagged for a closer look

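In 6 of the 80 groups of 4 libraries (10 genes in 8 groups), a single library lay so far from its fellows that its gap to the nearest, as a share of the range of the group, exceeded Dixon's 95% critical value. Chance alone gives this in about 1 of 20 groups. Brainstem ADREX ozone 81 was the high library for 3 genes: Rapgef1 at 707 against 420.2 to 458, Rapgef3 at 764 against 387 to 407, and Rapgef4 at 1764 against 1007 to 1126. Rapgef3 was also low in brainstem ADREX air 66, at 402 against 516 to 531. Rasgrp1 was low in brainstem SHAM ozone 18, which is rich in liver transcripts, at 686 against 908 to 931, and in hypothalamus SHAM air 4, at 1663 against 1786 to 1802. Causes were not tested.

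The ozone change of Rasgrp3 differed between adrenalectomized and sham rats by 1.24 in brainstem and 0.99 in hypothalamus. No test is given for this difference, because the gene was picked for its change in the sham libraries.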

How the results depend on the processing

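Counts of called exchange factors leave out Rasgrp3 wherever its difference includes the sham ozone libraries. They changed only without brainstem ADREX ozone 81: for adrenalectomy in ozone in brainstem the range with a library left out was 0 to 1 (Rapgef3), and for the tissue difference 7 to 8 (Rapgef1). The ozone change of Rasgrp3 in ADREX brainstem, -0.02, was 0.0126 after quantile normalization and -0.0536 to 0.0302 with a library left out, never called. Its difference of ozone changes in hypothalamus, 0.99, was 1.16 without the libraries rich in liver transcripts. Rasgrp2 between tissues, 0.02, was -0.00288 to 0.0354 with a library left out (the lowest without hypothalamus SHAM ozone 17). Over the other 9 exchange factors and 11 contrasts, 103 of 2704 alternative values had the opposite sign, 0 of them called.

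Counts of called genes over the whole table moved more. With DESeq2 they were, in brainstem, 237 for ozone in sham rats (141 with limma), 1 for ozone in ADREX rats (0), 16 for adrenalectomy in air (0) and 74 for the difference of ozone changes (29). In hypothalamus they were 412 (230), 14 for adrenalectomy in air (2) and 53 for the difference (20), and 2 for the sham change between tissues (0). With the compared groups alone, adrenalectomy in ozone gave 148 (352) and 161 (325), adrenalectomy in air in hypothalamus 0, and the sham change between tissues 1. Without the libraries rich in liver transcripts, the hypothalamus gave 591 for adrenalectomy in ozone, 0 for adrenalectomy in air and 32 for the difference. Adrenalectomy in air in hypothalamus gave 0 with no filter and 1 after quantile normalization. With a library left out, the brainstem counts were 73 (without SHAM ozone 20) to 272 (without ADREX ozone 81) for ozone in sham rats, 0 to 7 and 197 to 444 for adrenalectomy in air and ozone, and 18 to 47 for the difference. The hypothalamus counts were 115 (without SHAM ozone 17) to 334 (without ADREX ozone 84), 0 to 7, 198 to 584 (without SHAM ozone 19 and 18), and 15 to 37. The cause was not tested.

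Replicate numbers recur across tissues, and the deviations of same-numbered libraries had a median correlation of 0.0677 over 16 pairs (-0.603 to 0.613), none best with its own number. With the number as a replicate block, the tissue comparison called 7597 genes (7850 without) and the same number of exchange factors, 7, and the sham change between tissues called 0. Within a tissue no number recurs, so no paired fit exists. Depth limits Rasgrf2, at 16 or more reads per brainstem library, and Rasgrp4 most.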
